A study of Homo sapiens with 15 samples.

Results

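The mitochondrial ribosomal protein genes encode the proteins of the ribosome that works inside mitochondria, and they were followed here in 3 acute myeloid leukemia (AML) lines after knockdown (KD) of RNF5, an E3 ubiquitin ligase of the endoplasmic reticulum. They were chosen by name, as every gene whose symbol starts with MRPL (large subunit) or MRPS (small subunit) followed by a number and at most a letter A to C. Of the 14906 gene identifiers with a value above 0 in any library, 74 were members, 46 of the large and 28 of the small subunit. All 74 were above 0 in all 15 libraries. Another 4 of the 78 identifiers with such a symbol were listed at 0 everywhere and were left out: both identifiers of MRPL30, a second identifier of MRPS17, and MRPS24.

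The libraries came from MOLM-13, U937 and HL-60, established human lines of the myeloid lineage. In each line, cells transduced with the empty lentiviral vector pLKO were compared with cells that carried a short hairpin RNA against RNF5 (shRNF5). There were 5 libraries of MOLM-13 (3 pLKO, 2 shRNF5), 4 of U937 (2 pLKO, 2 shRNF5) and 6 of HL-60 (3 pLKO, 3 shRNF5). According to the sample labels the harvest was at 7 days and according to the series' design text at 5 days, and which hairpin was sequenced is not given in the sources used here. The controls carried no hairpin, and the vector and the transduction were shared by both groups of a line. Nothing says that the libraries of a group came from separate cultures, so each p-value below measures the spread between these libraries, which may be technical.

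Every value below is a normalized read count, that is, the authors' count of reads of a gene after scaling of the libraries within a line. The library totals behind these values, estimated from the steps between low values, ran from 9700000 to 63800000 reads. In MOLM-13 they were 9700000 to 15300000 in pLKO and 24400000 to 63800000 in shRNF5, so depth and construct moved together there, while the ranges of the groups overlapped in U937 and HL-60. RNF5 itself stood at 1017 to 1223 in the pLKO and 76 to 81 in the shRNF5 libraries of MOLM-13, at 648 to 843 and 46 to 74 in U937, and at 506 to 689 and 37 to 133 in HL-60. The leukocyte gene PTPRC and the myeloid genes SPI1, CD33, LYZ and CEBPA were above 0 in every library, and CD3E, MS4A1, EPCAM and ALB were at 0 in all of them. In U937 the myeloid granule gene MPO was at only 32 to 96, and COL1A1 (15 to 234), which is not a myeloid gene, was above 0 although it was at 0 in the other lines. In bulk RNA, fewer cells of a type and less RNA per cell cannot be told apart.

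A mitochondrial ribosome has a small subunit, which reads the messenger, and a large subunit, which joins amino acids. Its RNA is transcribed from mitochondrial DNA, whereas all of its proteins are encoded in the nucleus, made in the cytosol and imported. It translates only the messengers of mitochondrial DNA, which encode core subunits of the respiratory chain and ATP synthase. Many of its proteins descend from bacterial ribosomal proteins, and others, such as MRPS27, are found only in mitochondrial ribosomes.

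The start regions of these genes were searched for short motifs, since nuclear genes for mitochondrial proteins are known for binding sites of NRF1 and of the ETS factor GABPA. RefSeq gave the region from 250 bases before to 50 bases after the start of transcription for 66 of the 74 genes (build GRCh38.p14). The following 30-base windows are shown for genes whose RNA changed in at least 1 line, with the motif in capitals. They are CCGGAAG for ETS factors, GCATGCGC for NRF1, AAGATGGCG for YY1 and CACGTG for the E-box, on either strand. The window of MRPS27 is given because this gene fell in all lines, and none of the motifs was found in its region. MRPS27 was not alone in this, as 23 of the 66 regions held none of these motifs and no TATAAA. Among them were those of the called genes MRPL12, MRPS5, MRPS6 and MRPS11, whose windows are not shown.
MRPS27 (chr5:72320241-72320270, minus strand, the 30 bases before the start): ccttcctctgtccgtaacccgttggctgtt
MRPS36 (chr5:69217622-69217651, plus strand, E-box): aacaatagaacaCACGTGggtggatcctag
MRPL17 (chr11:6683365-6683394, minus strand, NRF1): tccgagctaagGCGCATGCgttccctgaaa
MRPL3 (chr3:131502986-131503015, minus strand, ETS): ttgtaaaacgcaCCGGAAGtgggtccggcg
MRPL51 (chr12:6493349-6493378, minus strand, ETS): ccggcaggcggaCCGGAAGcactgaggcgg
MRPS26 (chr20:3046003-3046032, plus strand, ETS): ttccccgcgccgCTTCCGGggcacggtggc
MRPS10 (chr6:42217834-42217863, minus strand, YY1): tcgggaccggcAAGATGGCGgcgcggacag
MRPL36 (chr5:1799855-1799884, minus strand, YY1): cccccccccgcCGCCATCTTccttcctggc
The ETS letters were present in 26 of the 66 regions (39.4%), against 18.8% of 9636 regions of other genes above 0 and 10.6% of all 27305 regions. The YY1 letters were present in 12 (18.2%, against 3.84% and 1.81%), and the NRF1 letters in 6 (9.09%, against 5.46% and 3.21%). The E-box was present in 10 (15.2%, against 9.82% and 7.28%), and the letters TATAAA of the TATA box in 3 (4.55%, against 5.88% and 12.1%). MRPL17 held the NRF1 letters at 3 places, of which a pair overlapped because the site reads almost alike on both strands. These shares are descriptions of letters and were not tested. The members with the ETS letters had a median log2 fold change after knockdown of -0.31 in MOLM-13, against -0.20 for members without them. The medians were 0.22 against 0.12 in U937 and 0.11 against -0.07 in HL-60. The other motifs follow in the order MOLM-13, U937, HL-60. With the YY1 letters the medians were -0.12, 0.10 and -0.18, and without them -0.27, 0.17 and 0.07. With the NRF1 letters they were -0.29, -0.05 and -0.13, and without them -0.21, 0.18 and 0.01. With the E-box they were -0.14, 0.37 and -0.19, and without it -0.27, 0.12 and 0.01. With TATAAA (3 members) they were 0.09, 0.61 and -0.41, and without it -0.25, 0.17 and 0.01. These differences were not tested.

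MRPS27 was the only member that fell in all 3 lines. How many of all genes did so was not counted. It encodes a small subunit protein with pentatricopeptide repeats, a fold that binds RNA. The gene lies on chromosome 5 from 71510780 to 71617544, minus strand (hg19), and it shares exon sequence with PTCD2 on the opposite strand. In MOLM-13 its normalized read count was 4502, 6113 and 5649 in the pLKO libraries and 2157 and 1955 in the shRNF5 libraries. In U937 it was 1030 and 1181 in pLKO against 532 and 571 in shRNF5. In HL-60 it was 3541, 3866 and 3768 in pLKO against 1075, 1587 and 929 in shRNF5. In each line every knockdown library lay below every control library. Fits with limma on log2(value + 1) gave a log2 fold change of -1.39 ± 0.16 (SE, adjusted p = 0.0275) in MOLM-13. The same fit gave -0.999 ± 0.26 (adjusted p = 0.0466) in U937 and -1.67 ± 0.18 (adjusted p = 0.00075) in HL-60, where p-values were adjusted over all genes tested in that line. The fall in HL-60 passed under each of the 18 other settings and left-out libraries. In MOLM-13 the adjusted p of MRPS27 was 0.130 without the second pLKO library, 0.205 without the first shRNF5 library and 0.210 without the second, and in U937 it was 0.256 without the pLKO library numbered 2, 0.600 without shRNF5 1 and 0.246 without shRNF5 3. The log2 fold change stayed between -1.53 and -1.30 in MOLM-13 and between -1.10 and -0.90 in U937 under all alternatives. PTCD2 was at 113 to 450 across the libraries, and it fell in HL-60 (log2 fold change -0.72, adjusted p = 0.0320), while it was -0.19 (adjusted p = 0.661) in MOLM-13 and 0.50 (adjusted p = 0.413) in U937. The reads of such overlapping genes may not be fully separated.

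**Figure D1:**
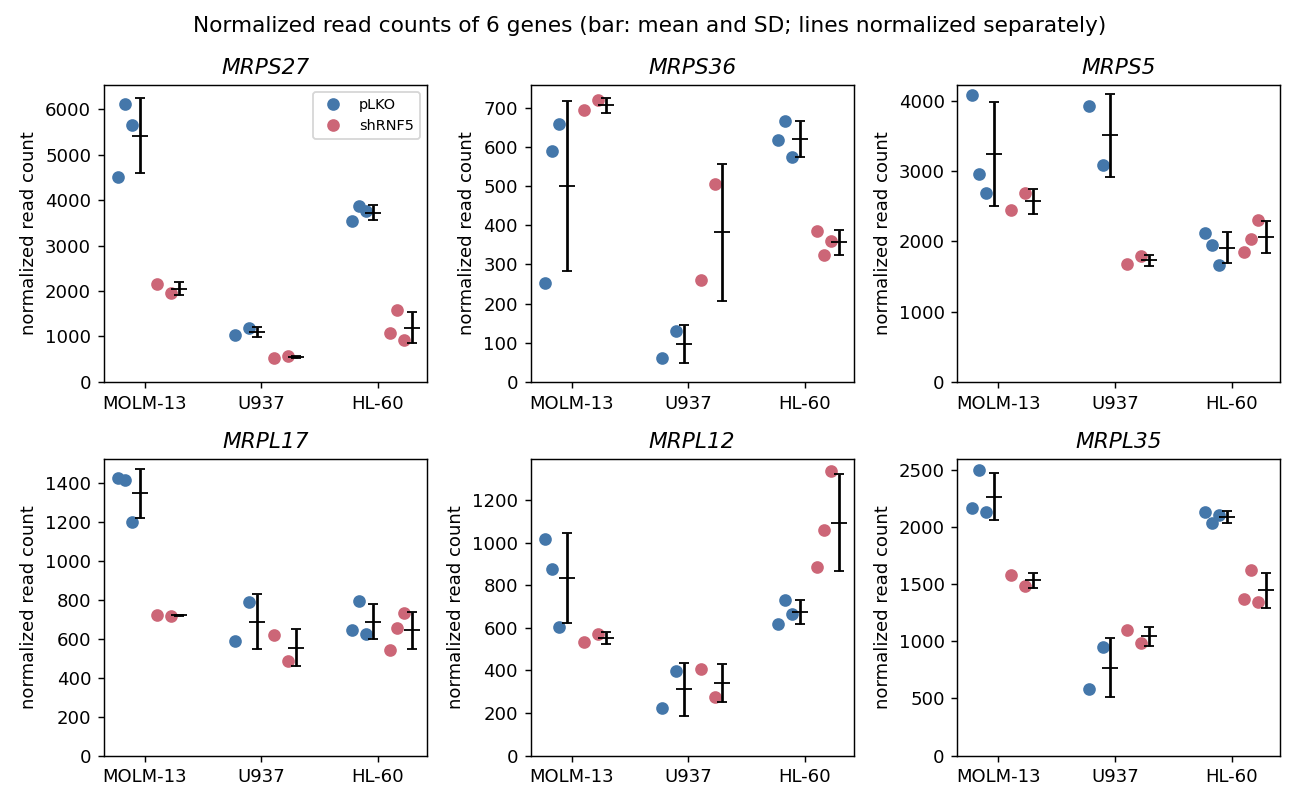
Normalized read counts (vertical axis, from 0) of 6 mitochondrial ribosomal protein genes in each pLKO (blue) and shRNF5 (red) library of MOLM-13, U937 and HL-60. Black bars give the mean and SD of a group, and levels cannot be compared between lines because these were normalized separately. MRPS27 was lower in every knockdown library than in every control library of its line, whereas MRPS36 was higher in U937 and lower in HL-60.

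MRPS36 was the only other member that passed in more than 1 line, and it moved in opposite directions. It was first described as a small subunit protein and is also known as a subunit of the 2-oxoglutarate dehydrogenase complex (KGD4), so its place in the ribosome is uncertain. In U937 it was at 62 and 130 in pLKO and at 259 and 506 in shRNF5, a log2 fold change of 1.999 ± 0.46 (limma, adjusted p = 0.0348). In HL-60 it was at 618, 666 and 575 in pLKO and at 386, 323 and 361 in shRNF5, a log2 fold change of -0.80 ± 0.14 (limma, adjusted p = 0.00473). The groups did not overlap in either line. In MOLM-13 the pLKO libraries ranged widely (253, 590 and 658), the shRNF5 libraries were at 693 and 719, and the log2 fold change of 0.61 did not pass (adjusted p = 0.429). The difference between the responses of U937 and HL-60 was 2.80 ± 0.52 on the log2 scale (limma interaction, adjusted p = 0.00207), the largest of any member. The U937 call was lost without pLKO 2 (adjusted p = 0.261), shRNF5 1 (adjusted p = 0.519) or shRNF5 3 (adjusted p = 0.274), and the HL-60 call was lost when all 15 libraries shared 1 estimate of spread (adjusted p = 0.119). The difference between these lines passed under all 19 of its alternatives. The 5 MRPS36 pseudogenes in the files were at 0 in every library, and whether their sequence takes reads from MRPS36 was not tested.

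**Figure D2:**
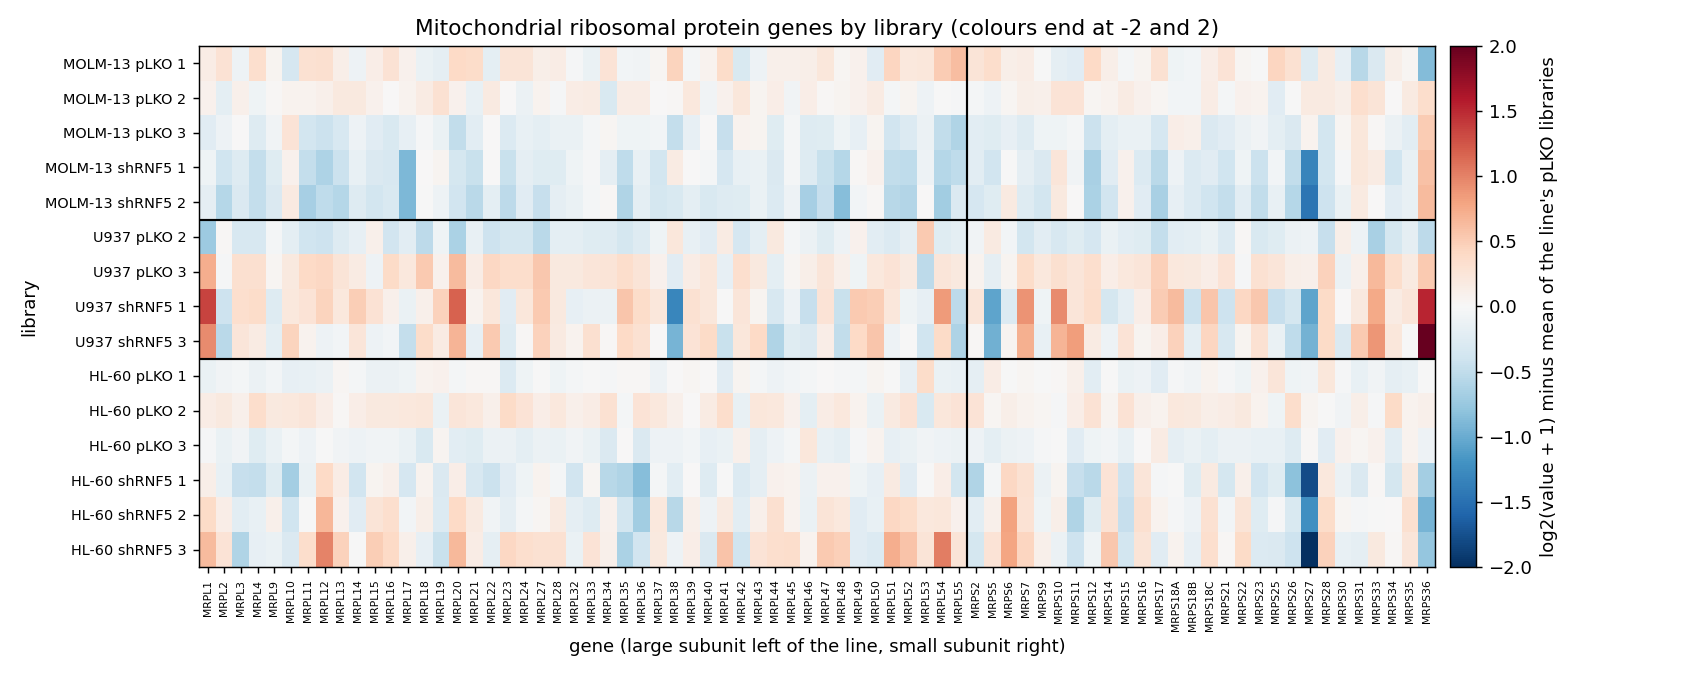
Each column is a mitochondrial ribosomal protein gene and each row a library; colour gives log2(value + 1) minus the mean of the pLKO libraries of the same line, from blue (lower) to red (higher). The MRPS27 column is blue in all shRNF5 rows, the MOLM-13 shRNF5 rows are pale blue across most genes, and the pLKO rows of U937 differ from each other across most genes.

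In MOLM-13, most mitochondrial ribosomal protein genes were slightly lower after knockdown, but few passed the test. No member rose and 2 fell, where a change was called at an adjusted p under 0.1 and a log2 fold change beyond 0.4 in either direction. Of all 13026 genes tested in this line, 1.03% were called higher and 1.01% lower. At an unadjusted p under 0.05, 0 members were higher and 21 were lower, against 1111 higher and 1102 lower of all 13026 genes. The log2 fold change was below 0 for 66 of the 74 members, with a median of -0.27, while 49.2% of all genes were below 0 with a median of 0.01. Both subunits showed this (44 of 46 large and 22 of 28 small subunit genes below 0, medians -0.28 and -0.26). All shRNF5 libraries were below all pLKO libraries for 38 members and above them for 1, against 19.2% and 19.6% of all genes.

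MRPL17 was the second member that fell in MOLM-13. It is the homolog of a bacterial large subunit protein, its gene lies on chromosome 11 from 6701616 to 6704571 (hg19, minus strand), and its region held the NRF1 letters shown above. Its normalized read count was 1425, 1416 and 1201 in pLKO and 721 and 719 in shRNF5, so the groups were far apart. The log2 fold change was -0.90 ± 0.15 (limma, adjusted p = 0.0664). The call was lost without pLKO 2 (adjusted p = 0.187), pLKO 3 (0.112), shRNF5 1 (0.504) or shRNF5 2 (0.460), with log2 fold changes from -0.98 to -0.86. The number of members that fell in MOLM-13 was 5 without pLKO 1, 1 without pLKO 3 and 0 without pLKO 2 or either shRNF5 library, and over all genes the count of 132 became 455, 20 and at most 3. In U937 the MRPL17 values were 588 and 789 in pLKO and 621 and 488 in shRNF5, and in HL-60 they were 646, 793 and 626 in pLKO and 540, 658 and 731 in shRNF5. These groups overlapped.

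The members also differed between the control libraries of MOLM-13, and transcript length moved with the fold change over all genes. As the median of the members' log2 deviations from their mean in the pLKO libraries of the line, the pLKO libraries gave 0.11, 0.08 and -0.14. The shRNF5 libraries gave -0.24 and -0.27. The third pLKO library thus lay between the other controls and the knockdown libraries. Members have short transcripts (median longest transcript of 1715.5 bases, against 3618 for all genes tested), and among all genes with a length in MOLM-13 the log2 fold change rose with length (Spearman's rho of 0.26 across genes, which are not independent replicates). Among genes with a longest transcript of at most 2200 bases the median log2 fold change was -0.13 over all 3186 genes and -0.28 over the 47 members among them. Among the members themselves rho was 0.09, and their median was -0.25 both for the 13 of 2201 to 3618 bases and for the 8 of at least 5453 bases, while it was 0.0039 for the 4 in between. After removal of the length trend from each library, the median over the members was -0.14, and 2 members were still called lower. What part depth or length has in the shift was not tested further.

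**Figure D3:**
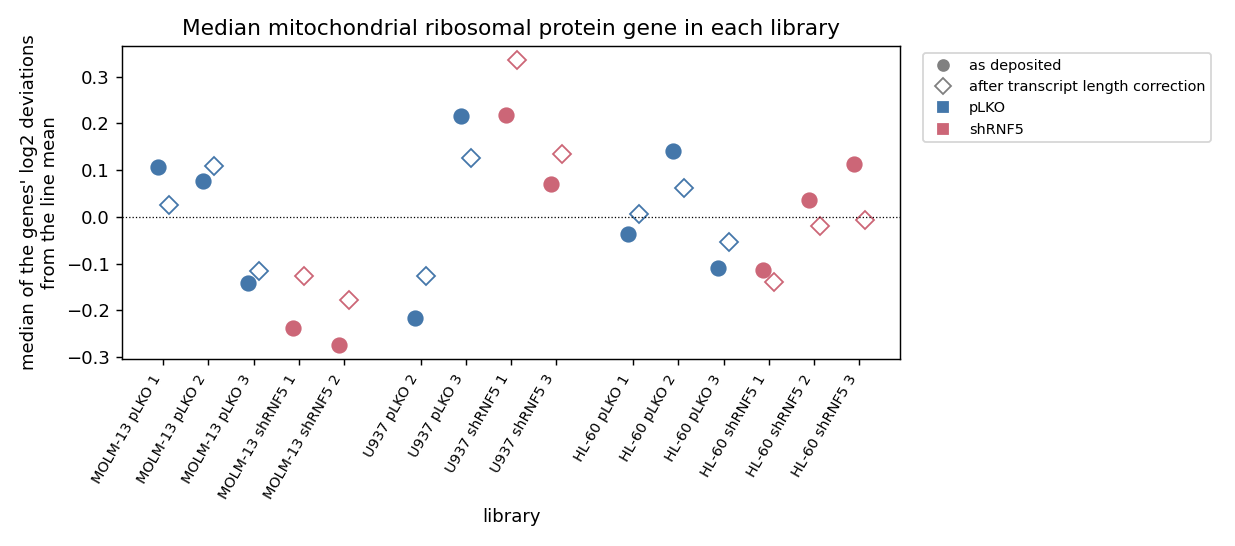
Median over the mitochondrial ribosomal protein genes of the log2 deviation in each library (vertical axis), as deposited (circles) and after removal of the trend with transcript length (diamonds), for pLKO (blue) and shRNF5 (red). Deviations are from the mean of the line's pLKO libraries, which the axis names the line mean. In MOLM-13 the shRNF5 circles lie at -0.24 and -0.27, below pLKO circles at 0.11, 0.08 and -0.14. In U937 the pLKO circles lie at -0.22 and 0.22, equal and opposite because their own mean is the reference.

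In U937, 4 members passed: MRPS36 and MRPS10 rose and MRPS5 and MRPS27 fell. All 4 have small subunit symbols, although the place of MRPS36 in the ribosome is uncertain. Over all 13165 genes tested in U937, 6.92% were called higher and 8.74% lower, so the 2 members called in each direction (2.70% each) were a smaller share than among all genes. The median log2 fold change of the members was 0.15, with 48 above 0. The groups did not overlap for 22 members that were higher (29% of all genes) and 12 that were lower (30.2% of all genes). At an unadjusted p under 0.05, 5 members were higher and 3 were lower, against 1682 higher and 1886 lower of all 13165 genes.

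MRPS5, the homolog of a bacterial protein of the decoding subunit, was at 3931 and 3093 in the U937 pLKO libraries and at 1673 and 1786 in shRNF5. The log2 fold change was -1.01 ± 0.24 (limma, adjusted p = 0.0390). In MOLM-13 its values were 4077, 2959 and 2690 in pLKO and 2444 and 2695 in shRNF5, and in HL-60 they were 2114, 1955 and 1668 in pLKO and 1856, 2034 and 2303 in shRNF5. These groups overlapped. The response of MRPS5 in U937 was 1.12 ± 0.26 lower on the log2 scale than in HL-60 (difference -1.12, limma interaction, adjusted p = 0.00597), and its difference of 0.70 between MOLM-13 and U937 did not pass (adjusted p = 0.114). MRPS10, also the homolog of a bacterial small subunit protein, was at 1478 and 2306 in pLKO and at 3552 and 2948 in shRNF5 of U937, a difference of 0.81 ± 0.27 on the log2 scale (adjusted p = 0.0939 by limma). In HL-60 it hardly moved (1241, 1192 and 1216 in pLKO, 1261, 1315 and 1121 in shRNF5).

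The U937 calls depended on single libraries, since each group had only 2. Without pLKO 2, shRNF5 1 or shRNF5 3, no member and at most 4 of all genes were called in a direction, and without pLKO 3, 8 members rose and 2 fell. The adjusted p of MRPS5 was 0.256, 0.600 and 0.230 without pLKO 2, shRNF5 1 and shRNF5 3, and that of MRPS10 was 0.315, 0.676 and 0.30. The pLKO libraries also differed from each other across the members, with median log2 deviations from their own mean of -0.22 and 0.22. These are equal and opposite by construction, so only the distance between them is informative. Against the same mean, shRNF5 was at 0.22 and 0.07. The median over the members was -0.08 without pLKO 2 and 0.38 without pLKO 3. Members outside the calls reached changes of similar size in U937, such as MRPL1, whose protein forms the stalk near the exit site of the transfer RNA. It was at 173 and 480 in pLKO and at 740 and 554 in shRNF5, and its log2 fold change of 1.15 ± 0.43 did not pass (limma, adjusted p = 0.121).

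In HL-60, 3 members rose and 9 fell. Over all 12570 genes tested, 13.6% were called higher and 12.3% lower, against 4.05% and 12.2% of the members. The median log2 fold change of the members was 0.01, with 38 above 0 and 36 below, so the signs were about balanced in number, unlike the calls. All shRNF5 libraries were above all pLKO libraries for 9 members (19.9% of all genes) and below them for 16 (18.6% of all genes). The log2 fold change was within 0.4 of 0 for 61 of the 74 members.

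The members that rose in HL-60 were MRPL12, MRPS6 and MRPL51. MRPL12, which forms the stalk of the large subunit that recruits translation factors, was at 619, 732 and 666 in pLKO and at 884, 1061 and 1336 in shRNF5 (log2 fold change 0.68 ± 0.16, limma, adjusted p = 0.0156). MRPS6, the homolog of a bacterial small subunit protein, was at 348, 378 and 322 in pLKO and at 465, 612 and 606 in shRNF5 (0.67 ± 0.15, limma, adjusted p = 0.0142). MRPL51, a large subunit protein, was at 1511, 1711 and 1349 in pLKO and at 1720, 2028 and 2509 in shRNF5 (0.44 ± 0.15, limma, adjusted p = 0.0681). All knockdown libraries lay above the controls for these genes, and those of MRPL51 almost touched them. MRPL12 and MRPS6 passed under all 18 alternatives in HL-60, and MRPL51 under 10. MRPL12 shares exon sequence on the same strand with an identifier that carries the symbol SLC25A10, and MRPS6 with SLC5A3. Both overlapping identifiers were listed at 0 in every library, and any other identifier of SLC25A10 was not looked up. MRPL51 overlaps NCAPD2 on the opposite strand, whose log2 fold change in HL-60 was -0.18 (limma, adjusted p = 0.340).

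Apart from MRPS27 and MRPS36, the falls in HL-60 were small. MRPL36, the homolog of the smallest bacterial large subunit protein, was at 611, 727 and 496 in pLKO and at 335, 371 and 463 in shRNF5 (log2 fold change -0.64 ± 0.18, limma, adjusted p = 0.0298). MRPL35, also of the large subunit, was at 2132, 2031 and 2101 in pLKO and at 1372, 1621 and 1344 in shRNF5 (-0.53 ± 0.12, limma, adjusted p = 0.0125). MRPS26, a small subunit protein of mitochondrial ribosomes, was at 760, 1031 and 672 in pLKO and at 457, 657 and 608 in shRNF5 (-0.51 ± 0.19, limma, adjusted p = 0.0805). The MRPL35 groups were widely apart, whereas those of MRPL36 and MRPS26 nearly met. The falls of MRPL35 and MRPL36 passed under all 18 alternatives, and that of MRPS26 under 11. The other 4 that fell were MRPS11 (-0.49), MRPL10 (-0.46), MRPL3 (-0.42) and MRPS15 (-0.41), named here after their values were seen. MRPL10 anchors the MRPL12 stalk, and it was at 620, 805 and 681 in pLKO and at 434, 528 and 569 in shRNF5, so the genes of these stalk proteins moved in opposite directions in HL-60. MRPL3 was among the members with the highest levels, at 5410, 5917 and 5301 in pLKO and at 4033, 4798 and 3668 in shRNF5. The number of members that rose was 5 without pLKO 2 and 8 without shRNF5 1, and the number that fell was 6 to 9 whichever library was left out.

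Across the lines, 59 of the 74 members were called in none, 13 in 1, MRPS36 in 2 and MRPS27 in 3. The log2 fold change had the same sign in all lines for 17 members. It was below 0 in all lines for 15, among them MRPS26 (-0.43 in U937, -0.53 in MOLM-13 and -0.51 in HL-60), and above 0 for MRPS10 and MRPS33. MRPS26 passed only in HL-60.

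Whether the members responded differently between lines was asked with an interaction term in a limma fit over all 15 libraries and the 11072 genes above 0 in every line, in which each line enters 2 of the 3 comparisons. Against U937, MOLM-13 had a lower response for 7 members and a higher response for 0 (8.48% and 6.95% of all genes). Against HL-60, it had a lower response for 6 members and a higher response for 0 (5.09% and 3.72% of all genes). Between U937 and HL-60, the response of 13 members was higher in U937 and that of 5 was lower (19.1% and 18.1% of all genes). At an unadjusted p under 0.05, MOLM-13 had a higher response for 2 members and a lower response for 20 against U937. Against HL-60 it had a higher response for 2 and a lower response for 19. The counts over all genes at this unadjusted threshold were not taken, so these cannot be read against a share. In both comparisons with MOLM-13, which share its libraries, every member that passed was thus lower there. Among those that passed, the largest differences between MOLM-13 and U937 were those of MRPL20 (-1.30 ± 0.46), which acts early in large subunit assembly, MRPL1 (-1.28 ± 0.44) and MRPL54 (-1.25 ± 0.44). These passed with adjusted p-values of 0.0882, 0.0813 and 0.0893 (limma interaction). Between MOLM-13 and HL-60 they were those of MRPL12 (-1.24 ± 0.36, adjusted p = 0.0643), MRPL48 (-0.97 ± 0.24, adjusted p = 0.0411) and MRPL51 (-0.96 ± 0.31, adjusted p = 0.0880), all by limma interaction.

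**Figure D4:**
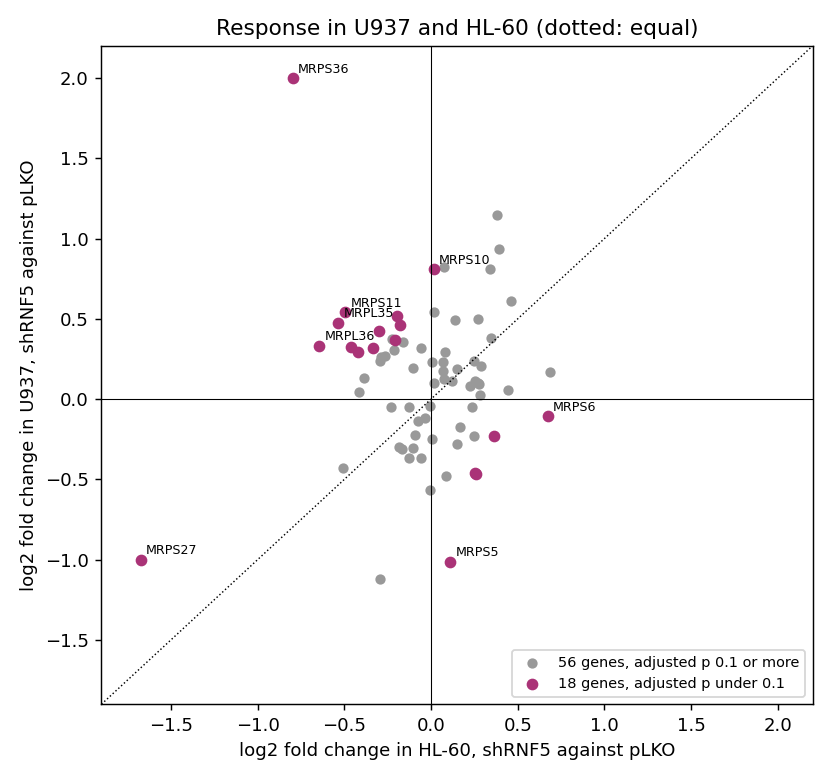
Log2 fold change after knockdown of each of the 74 mitochondrial ribosomal protein genes in HL-60 (horizontal axis) and U937 (vertical axis), with equal values on the dotted line. The 18 genes in purple differed between these lines at an adjusted p under 0.1, with MRPS36 (1.999 in U937, -0.80 in HL-60) and MRPS5 (-1.01 and 0.11) farthest from the line.

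The counts of members that differed rested on single libraries, and the counts over all 11072 genes moved with them. For MOLM-13 against U937 the count of 7 became 2 without MOLM-13 pLKO 2, 1 without MOLM-13 shRNF5 1, 0 without MOLM-13 shRNF5 2, U937 pLKO 2 or U937 shRNF5 1, and 37 without U937 pLKO 3. The count over all genes was 1708, and it was 130 to 398 where no member passed and 3436 without U937 pLKO 3. For MOLM-13 against HL-60 the count of 6 became 0 without MOLM-13 shRNF5 1 or 2 or without HL-60 pLKO 3 or shRNF5 3, 1 without MOLM-13 pLKO 1 or 2 or HL-60 pLKO 1, 2 without HL-60 shRNF5 2, and 12 without MOLM-13 pLKO 3. Over all genes it was 976, 49 to 362 where no member passed and 1317 without MOLM-13 pLKO 3. For U937 against HL-60 the count of 18 became 9 without U937 pLKO 2 or shRNF5 1 and 32 without U937 pLKO 3, and that over all genes went from 4122 to 3248, 2609 and 4798. MRPL35, with a log2 fold change of 0.48 in U937 against -0.56 in MOLM-13 and -0.53 in HL-60, differed between U937 and HL-60 under all 19 alternatives (1.01 ± 0.25, limma interaction, adjusted p = 0.00915), as did MRPS36 and MRPS5.

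The levels of the members in the control cells spanned a wide range. Per kilobase of the longest transcript, the highest members in MOLM-13 were MRPL3 (2867 ± 202 normalized reads per kilobase, SD, n = 3), MRPL51 (2330 ± 663) and MRPS35 (2177 ± 299). In U937 they were MRPL37 (1738 ± 158, SD, n = 2), MRPL51 (1580 ± 420) and MRPL9 (1423 ± 55), and in HL-60 MRPL9 (5499 ± 671, SD, n = 3), MRPL3 (3245 ± 192) and MRPS34 (2598 ± 642). Neighbours among these highest 3 overlapped within their SD, except that MRPL9 stood clear of the others in HL-60. The lowest was MRPL46 in each line (46.5, 35.4 and 33.3 per kilobase), with MRPL53 and MRPL38 above it in MOLM-13 and HL-60 and MRPL53 and MRPS33 in U937. The highest member was 61.7 times the lowest in MOLM-13, 49.1 times in U937 and 165 times in HL-60. Without division by length the order was another: MRPL53 was lowest in each line, and the highest was MRPS27 in MOLM-13 (5421 ± 829, SD, n = 3), MRPS5 in U937 (3512 ± 593, SD, n = 2) and MRPL9 in HL-60 (6951 ± 848, SD, n = 3). The sources name different library kits, and with a 3′ tag kit a division by length would not apply. Lengths were found for 72 members, the longest transcript need not be the one expressed, and the lines were normalized separately, so no level was tested between them.

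Calls among other genes of mitochondrial translation are read against all genes, of which 6.92% rose and 8.74% fell in U937. In HL-60 the shares over all genes were 13.6% and 12.3%, and in MOLM-13 only 1.03% and 1.01%. With shares this low in MOLM-13, 0 calls in a list of 7 to 32 genes says little. Of the translation factors 10% rose and 0% fell in U937, and 5% rose and 15% fell in HL-60. Of the aminoacyl-tRNA synthetases 5.88% rose and 5.88% fell in U937, and 0% rose and 17.6% fell in HL-60. Of the assembly and rRNA modification genes 3.12% rose and 3.12% fell in HL-60. Of the 7 with other symbols 14.3% rose there. Among 7 mitochondrial ribosomal proteins with other symbols, 0 passed in MOLM-13 and U937 (limma; 1 and 0 at an unadjusted p under 0.05), and AURKAIP1 rose in HL-60 (0.53, limma, adjusted p = 0.0765). Of 20 translation factors, 0 passed in MOLM-13 (1 higher and 1 lower at an unadjusted p under 0.05). GFM1 (an elongation factor, 0.82) and MTRF1L (a release factor, 1.05) rose in U937, and in HL-60 PDF rose (0.52) while QRSL1 (-0.51), MTFMT (-0.50) and MRRF (a ribosome recycling factor, -0.45) fell. Of 32 assembly and rRNA modification genes, 0 passed in MOLM-13 and U937 (0 in MOLM-13 and 1 in each direction in U937 at an unadjusted p under 0.05), and AFG3L2 rose (0.43) and GTPBP10 fell (-0.45) in HL-60. Of 17 mitochondrial aminoacyl-tRNA synthetases, 0 passed in MOLM-13 (1 was lower at an unadjusted p under 0.05). In U937 1 of the 17 rose and 1 fell, the latter being VARS2 (-0.84), and in HL-60 NARS2 (-0.51), YARS2 (-0.47) and MARS2 (-0.42) fell.

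The 13 messengers of mitochondrial DNA, which this ribosome translates, gave calls in opposite directions in U937 and HL-60. They all come from mitochondrial DNA and need not move independently, which limits a comparison with the share of all genes. In HL-60 11 of 13 fell (84.6%, against 12.3% of all genes), with a median log2 fold change of -1.54. An example was MT-ND2 (391 ± 86.5 in pLKO against 78.7 ± 32.0 in shRNF5, SD, n = 3). In U937 3 of 13 rose (MT-CYB, MT-ND2 and MT-ND5), which is 23.1%, against 6.92% of all genes. The smallest of their adjusted p-values was 0.0486 (limma), and calls in U937 depended on single libraries, as given above. The median over the 13 was 1.15. There MT-ND2 was at 31 ± 28.3 in pLKO against 226 ± 209 in shRNF5 (SD, n = 2), which shows how far the U937 libraries spread. In MOLM-13 12 of 13 were above 0 with a median of 0.51, and 0 passed, where 1.03% of all genes were called higher. By limma 2 of the 13 were higher there at an unadjusted p under 0.05. The response differed between U937 and HL-60 for 11 of 13 and between MOLM-13 and HL-60 for 9 of 13 (limma interaction). The ribosomal RNAs of mitochondria, MT-RNR1 and MT-RNR2, did not pass in any line.

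Of 18 genes that act on mitochondrial DNA and its transcription, 1 rose and 1 fell in U937 (5.56% each). In HL-60 0 of 18 rose and 2 fell (11.1%). Of their regulators, 1 of 9 rose and 1 fell in U937 (11.1% each), and 3 of 8 fell in HL-60 (37.5%). In MOLM-13 0 genes of these lists passed, where 1.03% of all genes rose and 1.01% fell. Over all genes 6.92% rose and 8.74% fell in U937, and 13.6% rose and 12.3% fell in HL-60. C10orf2, the mitochondrial DNA helicase, rose in U937 (1.27, limma, adjusted p = 0.0401) and fell in HL-60 (-0.58, limma, adjusted p = 0.0103), and PPRC1, a coactivator of genes for mitochondrial proteins, did likewise (0.78 and -0.45, limma, adjusted p = 0.0944 and 0.0429). POLG2 fell in U937 (-1.17), and MTPAP fell in HL-60 (-0.47). Of the other regulators, PPARGC1A fell in U937 (-1.91), and MYC (24774 ± 4319 in pLKO against 10172 ± 1317 in shRNF5, SD, n = 3) and PPARGC1B fell in HL-60 (-1.28 and -0.78). NRF1, GABPA and YY1, whose motifs are given above, did not pass in any line, with log2 fold changes between -0.16 and 0.27.

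Beside these, the 78 cytosolic ribosomal protein genes had, in the median, a change of -0.45 (log2) in U937, -0.10 in MOLM-13 and 0.0034 in HL-60. In U937 13 of them fell (16.7%) where 2 of the 74 members did (2.7%), against 8.74% of all genes. The 77 nuclear-encoded respiratory chain subunits had a median of -0.11 in U937, -0.31 in MOLM-13 and 0.14 in HL-60. In HL-60 14 of these subunits rose (18.2%) where 3 members did (4.05%), against 13.6% of all genes. The median over the members in MOLM-13 (-0.27) was thus close to that of the respiratory chain subunits. These are descriptions, and the lists were not tested against each other.

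**Figure D5:**
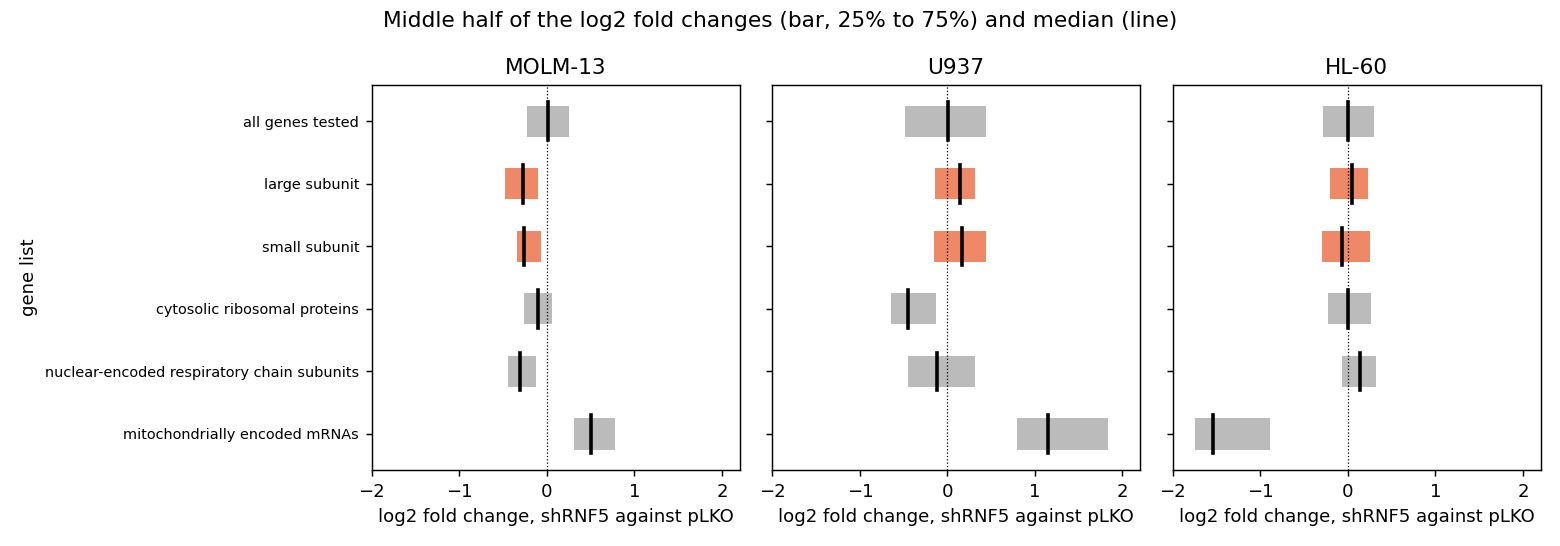
Interquartile range (bar) and median (black line) of the log2 fold change after knockdown (horizontal axis) in MOLM-13, U937 and HL-60, for all genes tested, the large and small subunit genes (orange), and 3 other lists. The orange bars lie below 0 in MOLM-13 and across 0 in U937 and HL-60, and the messengers of mitochondrial DNA lie above 0 in MOLM-13 and U937 and below 0 in HL-60.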

How the data were processed

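RNA from 15 libraries of 3 AML lines was sequenced. Per the study's methods, the authors trimmed reads with CUTADAPT, used STAR for alignment (hg19) and featureCounts of Subread for the counts of each gene, and normalized each line separately with edgeR in SARTools. The labels name a 3′ tag library kit and the methods a directional poly(A) kit, so a dependence on transcript length and strand cannot be settled. The deposited value is a score: a normalized read count that the authors scaled per library and rounded to whole numbers. No count test was therefore run, and library depth was estimated from the steps of low values (tested on simulated data). Repeated rows of an identifier were merged, and no pair of libraries was identical.

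For each line, limma 3.58.1 (R 4.3.3) with a mean-variance trend was fitted on log2(value + 1) to all genes above 0 in the line, with Benjamini-Hochberg adjustment over them. On this scale the change of low genes is understated. Calls required an adjusted p under 0.1 and a log2 fold change beyond 0.4. Differences between lines were an interaction in a fit over 15 libraries. The script was tested on simulated data. The members and lists were chosen with earlier results of these data known. Named were MRPS27, members called in 2 or more lines, in each line the 5 largest rises and falls among called members with groups apart, the 3 largest differences per pair of lines, the 3 highest and lowest levels, and, from the other lists, genes called in 2 or more lines or with the 2 largest changes; further names were chosen after their values were seen. Transcript lengths came from GENCODE (GRCh37), and promoters from RefSeq. Replicate numbers were not used as pairs, and alternatives are given in the closing section. A few genes of the marker and pathway lists are not reported here.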

Additional observations from a re-analysis of the deposited data

Results flagged for a closer look

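The following responses to knockdown differed between lines, each by a limma interaction at an adjusted p under 0.1, given as the log2 fold change of the first line minus that of the second. Lower in MOLM-13 than in U937 were MRPL1 (-1.28), MRPL20 (-1.30), MRPL35 (-1.04), MRPL54 (-1.25), MRPS18C (-0.81), MRPS23 (-0.89) and MRPS7 (-1.02). Lower in MOLM-13 than in HL-60 were MRPL12 (-1.24), MRPL17 (-0.80), MRPL47 (-0.75), MRPL48 (-0.97), MRPL51 (-0.96) and MRPS14 (-0.67).

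Higher in U937 than in HL-60 were MRPL10 (0.78), MRPL14 (0.57), MRPL19 (0.65), MRPL3 (0.71), MRPL35 (1.01), MRPL36 (0.98), MRPL49 (0.64), MRPL50 (0.72), MRPS10 (0.79), MRPS11 (1.04), MRPS23 (0.72), MRPS27 (0.67) and MRPS36 (2.80). Lower in U937 than in HL-60 were MRPL44 (-0.71), MRPL48 (-0.73), MRPS14 (-0.59), MRPS5 (-1.12) and MRPS6 (-0.78). The difference of MRPS27 (adjusted p = 0.0773) concerned the size of a fall present in both lines, and it did not pass under 13 of its 19 alternatives, with adjusted p-values from 0.0129 to 0.235 over all of them. Groups of 2 or 3 libraries were too small to look for single outlying values.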

How the results depend on the processing

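No called member and no member difference between lines that passed changed sign under the alternatives run for it, and the fall of MRPS27 in HL-60, the largest change of a member in that line, passed under all 18. For MOLM-13, the members called lower were 2 as reported, 1 without a mean-variance trend or at an adjusted p under 0.05, 16 with library weights (1104 of all genes, against 132 as reported), and 0 to 5 when a library was left out. The members called higher in MOLM-13 were 0 under every alternative (0 to 0 without a library). For U937, the members called higher were 2 as reported, 1 with upper-quartile rescaling or at an adjusted p under 0.05, 0 without a trend, 5 with a transcript length correction, 11 in a single fit over all libraries and 0 to 8 without a library. Those called lower were 0 without a trend, 6 in the single fit and 0 to 2 without a library. For HL-60, those called higher were 6 with no minimum fold change and 2 to 8 without a library, and those called lower were 5 in the single fit and 6 to 9 without a library. Upper-quartile rescaling changed the calls over all U937 genes to 683 higher and 1113 lower, from 911 and 1151.

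Whether the replicate numbers of the labels pair the samples could not be settled. In HL-60 the deviations of samples with the same number correlated at 0.50, 0.16 and -0.11. Their mean was 0.18, against -0.09 for samples with different numbers. In MOLM-13 the pairs with the same number correlated at -0.17 and -0.53. The deviations of the 2 shRNF5 libraries there are equal and opposite, so each control's correlations with them differ only in sign. With the numbers of the deposited MOLM-13 files, which differ from the labels, the pairs correlated at 0.53 and 0.28, and these are only 2 pairs. With the label numbers as a replicate block, members called lower were 5 in MOLM-13 (354 of all genes), and 10 with the file numbers (1209 of all genes). In HL-60 the block left 3 higher and 9 lower. In U937 no degrees of freedom were left for it.

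The median log2 fold change of the members in MOLM-13 moved to -0.14 with the length correction (which gave 0.26 in U937, from 0.15, and -0.07 in HL-60, from 0.01) and lay between -0.33 and -0.20 without a library, in U937 between -0.08 and 0.38, and in HL-60 between -0.06 and 0.09. Members that differed between MOLM-13 and U937 were 4 with upper-quartile rescaling or without a trend, 3 at an adjusted p under 0.05 and 0 to 37 without a library. Between MOLM-13 and HL-60 they were 4 with upper-quartile rescaling, 2 without a trend, 26 with library weights, 1 at an adjusted p under 0.05 and 0 to 12 without a library. Between U937 and HL-60 they were 9 to 32 without a library. Levels not divided by length gave a fold between highest and lowest of 96.8 in MOLM-13 and 108 in U937. Of the genes in the other lists, the count called higher fell from 3 to 1 in HL-60 and from 8 to 2 in U937 at an adjusted p under 0.05, the one alternative run for those lists. A lone sample left in a group by leaving a library out was taken to vary like the other group. The causes of these changes were not tested. With 2 or 3 libraries a group, small changes of single members could not be resolved.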
